A study of Mus musculus with 12 samples.

Results

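A set of 10 genes of the YAP/TEAD pathway was described in MC38 cells, a mouse line made from a colorectal carcinoma, with and without knockout of Smarcd1 and with and without interferon (IFN). They were taken by name from the 51826 genes of the count table: the coactivators Yap1 and Wwtr1, the DNA-binding factors Tead1 and Tead4, the inhibitors Lats2 and Amotl2, and the targets Ctgf, Cyr61, Ankrd1 and Axl. All 10 were found, and all 10 were among the 16676 genes with enough counts to be tested. The product of Smarcd1 is part of SWI/SNF complexes, which remodel chromatin, and the series deals with its part in PD-L1 expression and proliferation. Poly-A RNA of 12 samples was sequenced in 4 groups of 3, each of MC38 cells: Smarcd1 knockout cells with IFN, wild-type cells with IFN, Smarcd1 knockout cells without treatment, and wild-type cells without treatment. The knockout was made with a guide RNA. Whether it is 1 clone, which interferon was added, at what dose and for how long are details not given in the sources used here.

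YAP (encoded by Yap1) and TAZ (encoded by Wwtr1) bind no DNA by themselves. When LATS kinases phosphorylate them they are held in the cytoplasm or degraded. When that brake is off they enter the nucleus, join TEAD proteins on DNA and turn on genes for matrix proteins, cell shape and growth. Several of the targets, Lats2 and Amotl2 among them, code for inhibitors that feed back on YAP and TAZ. In the gut the pathway is known for regeneration after injury and for its activity in tumours. Transcript levels, as measured here, do not report the phosphorylation or the location of the proteins.

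The TEAD proteins contact the letters GGAATG, or CATTCC on the other strand. The promoters of the genes were searched for them because the targets among the genes share this factor. RefSeq promoter windows (build GRCm38.p6, from 250 bases before to 50 after a transcription start) were at hand for 7 of the 10 genes. Ctgf, Tead1 and Tead4 had none. Each of the 7 held the letters in at least 1 window. By windows it was 8 of 9, against 14.7% of all 32851 mouse windows of that length. The windows of Wwtr1 overlap each other and hold the same match, so that site is counted more than once. Ankrd1 held the TEAD letters at 2 places, as did 1.36% of all windows. The AP-1 letters TGANTCA and the STAT letters TTCNNNGAA, both of which read the same on both strands, were in the windows of 0 of the 7 genes, against 7.81% and 8.3% of all windows. With 9 windows, a count of 0 is near these shares. A TEAD match can share bases with the AP-1 or the STAT letters, since GGAATG holds GAA and ends in TG. These are matches of letters and say nothing on binding in these cells. The windows of both coactivators and of a pair of targets are shown whole, 5′ to 3′ on the strand of the gene, with the TEAD letters in capitals. They are Yap1 at chr9:8004547-8004846, Wwtr1 at chr3:57575861-57576160, Ankrd1 at chr19:36119795-36120094 and Cyr61 at chr3:145649936-145650235, all on the minus strand.
Yap1: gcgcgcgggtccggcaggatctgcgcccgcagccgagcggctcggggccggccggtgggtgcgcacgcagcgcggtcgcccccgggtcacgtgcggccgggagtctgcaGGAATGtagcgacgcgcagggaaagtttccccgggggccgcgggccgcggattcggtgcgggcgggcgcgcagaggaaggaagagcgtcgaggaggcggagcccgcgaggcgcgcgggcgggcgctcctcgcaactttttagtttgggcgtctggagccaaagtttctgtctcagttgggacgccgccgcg
Wwtr1: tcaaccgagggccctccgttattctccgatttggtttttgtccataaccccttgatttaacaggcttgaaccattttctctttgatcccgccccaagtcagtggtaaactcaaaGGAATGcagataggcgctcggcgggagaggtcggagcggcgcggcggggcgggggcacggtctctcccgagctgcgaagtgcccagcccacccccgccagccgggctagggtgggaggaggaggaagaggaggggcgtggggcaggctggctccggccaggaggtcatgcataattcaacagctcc
Ankrd1: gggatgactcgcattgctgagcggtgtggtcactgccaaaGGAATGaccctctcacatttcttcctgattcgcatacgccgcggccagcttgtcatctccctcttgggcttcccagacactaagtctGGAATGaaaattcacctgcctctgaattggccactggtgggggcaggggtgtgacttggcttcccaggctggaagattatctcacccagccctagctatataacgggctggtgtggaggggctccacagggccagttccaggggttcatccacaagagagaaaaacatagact
Cyr61: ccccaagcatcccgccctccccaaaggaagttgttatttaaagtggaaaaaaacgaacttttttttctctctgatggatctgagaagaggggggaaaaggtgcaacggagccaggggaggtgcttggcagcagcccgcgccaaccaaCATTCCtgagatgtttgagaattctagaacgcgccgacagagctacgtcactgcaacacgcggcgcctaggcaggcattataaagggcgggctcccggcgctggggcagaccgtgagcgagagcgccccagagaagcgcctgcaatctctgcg
For the remaining genes with a window, the match is shown with 10 bases on either side. It begins 65 bases before the start of Amotl2 (plus strand of chromosome 9), 233 bases before that of Axl (minus strand of chromosome 7), and at base 5 after that of Lats2 (minus strand of chromosome 14).
Amotl2: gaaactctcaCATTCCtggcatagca
Axl: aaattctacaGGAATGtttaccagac
Lats2: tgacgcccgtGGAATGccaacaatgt

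Sample titles decided the groups. For 6 samples, the treated wild-type and the untreated knockout ones, the genotype and treatment characteristics name the other of these groups. Smarcd1 itself had 58.7 to 60.6 CPM (counts scaled to library size by TMM) in treated knockout libraries, against 86.5 to 123 CPM in treated wild-type ones, and 49.4 to 54.9 CPM in untreated knockout libraries, against 81.8 to 106 CPM in untreated wild-type ones. Grouped by titles its log2 fold change was -0.79 with IFN and -0.82 without (adjusted p = 0.00109 and 0.000814, edgeR), and grouped by characteristics 0.22 and 0.18 (adjusted p = 0.314 and 0.433). Libraries held 31752685 to 45721356 counts. In replicate 2 of the untreated wild-type cells 4.82% of counts were mitochondrial, against 1.52% to 2.99% in the other 11. By the chi-square per gene between replicate libraries, this library stood apart from its fellows (129 and 118.8, against 11.67 between those). So did untreated knockout replicate 1 (49.65 and 63.83, against 20.86) and treated wild-type replicate 3 (53.2 and 36.01, against 14.92). Of the 9 colon epithelial markers, Epcam, Krt20 and Cdx2 had 0 counts in all 12 libraries, which allows up to 0.0945 CPM in the smallest one, and Cdh1 had 1.07 to 4.55 CPM. Lgals4 had 1.26 to 2.14 CPM, Krt19 up to 1.78 CPM, and Krt8, Krt18 and Vil1 at most 0.461 CPM. IFN gave -1.72 for Cdh1 and -4.05 for Krt19 in knockout cells, and -1.26 and -4.44 in wild-type cells. The endothelial markers Pecam1, Cdh5, Kdr and Tek stayed at or below 1.94 CPM. Among leukocyte markers, Cd3e and Adgre1 had 0 counts and Ptprc stayed at or below 0.338 CPM, while Cd68 had 4.76 to 10.3 CPM. Of 8 fibroblast markers 5 or 6 were at 2 CPM or more in each library, and Lum and Thy1 were at or near 0. Their summed level was 277 to 282 CPM in treated knockout cells and 377 to 398 CPM in treated wild-type cells. In untreated cells it was 522 to 530 CPM in knockout and 545 to 627 CPM in wild-type libraries. The sum mixes opposite changes. Relative to wild-type cells, Col1a1 gave -2.67 with IFN and -2.47 without, Dcn -1.55 in both, and Col1a2, the largest item of the untreated sums, 0.20 and 0.21 (adjusted p = 0.144 and 0.123, edgeR). With IFN, Dcn rose by 0.88 in knockout and 0.89 in wild-type cells, while Col1a2 gave -1.59 in both. The part of these differences in the results that follow was not tested.

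With IFN present, 6 of the 10 genes fell in knockout cells relative to wild-type cells: Yap1, Wwtr1, Tead4, Amotl2, Ctgf and Ankrd1. The other 4 did not pass the test (edgeR's quasi-likelihood test with Benjamini-Hochberg adjustment over 16676 genes, threshold 0.05). In bulk RNA, fewer cells that express a gene and less RNA per cell cannot be told apart. Over all genes tested 10.6% fell and 5.11% rose, 15.7% in all. The median log2 fold change of the 10 genes was -0.38, and that of all genes was -0.0031. Libraries of the 2 groups did not overlap for 7 of the 10 genes, 6 lower and 1 higher in knockout cells, against 41.1% of all genes (21.7% lower, 19.4% higher). The gene that was higher was Tead1, which did not pass and whose treated groups overlapped in the authors' TPM. The count of 6 fell in each fit that left out a treated library. It was 3, 4 and 5 without replicate 1, 2 or 3 of the treated knockout cells, in this order. For the treated wild-type cells it was 4, 5 and 4. It was 7 without untreated wild-type replicate 1, 3 with no filter on low counts, and 5 in the fit of only the 6 libraries compared.

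Without IFN, 4 of the 10 genes passed between knockout and wild-type cells: Yap1, Wwtr1 and Tead4 fell, and Ctgf rose. Over all genes 10.6% fell and 6.43% rose, 17% in all. The median log2 fold change was -0.19 for the 10 genes and -0.0047 for all genes. Libraries did not overlap for the same 4 genes, 3 lower and 1 higher, against 33.5% of all genes (18.2% lower, 15.3% higher). The 4 calls stood whichever of the 12 libraries was left out.

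For IFN the calls were fewer. In knockout cells IFN raised Cyr61 and lowered Ctgf and Ankrd1, while over all genes 5.47% rose and 7.28% fell, 12.8% in all. Libraries did not overlap for 5 genes that were higher and 2 that were lower with IFN, against 39.4% of all genes (18.9% higher, 20.5% lower). In wild-type cells IFN raised Amotl2 and Cyr61, and the other 8 genes did not pass, while over all genes 4.66% rose and 4.72% fell, 9.38% in all. Libraries did not overlap for 3 genes, all higher with IFN, against 27.9% of all genes (13.8% higher, 14.1% lower). The medians of the 10 genes were 0.23 in knockout cells and 0.06 in wild-type cells, against -0.0058 and -8e-04 over all genes. The count in knockout cells was 5 when treated wild-type replicate 3 was left out. The count in wild-type cells was 1 without replicate 1 of the untreated wild-type cells, without treated wild-type replicate 2 or with no filter, and 4 without untreated wild-type replicate 2 and untreated knockout replicate 1 together.

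The knockout effect differed between cells with and without IFN, by the interaction term of the same fit, for 1 of the 10 genes, Ctgf. Over all genes 0.708% had a positive and 0.312% a negative interaction at this threshold, 1.02% in all. The median interaction was -0.1 for the 10 genes and -0.0193 for all genes. The count was 2 without untreated wild-type replicate 2 (with Ankrd1) and 2 without treated wild-type replicate 3 (with Wwtr1). The 4 comparisons share libraries in pairs, so their values are given side by side and are not independent of one another.

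**Figure D1:**
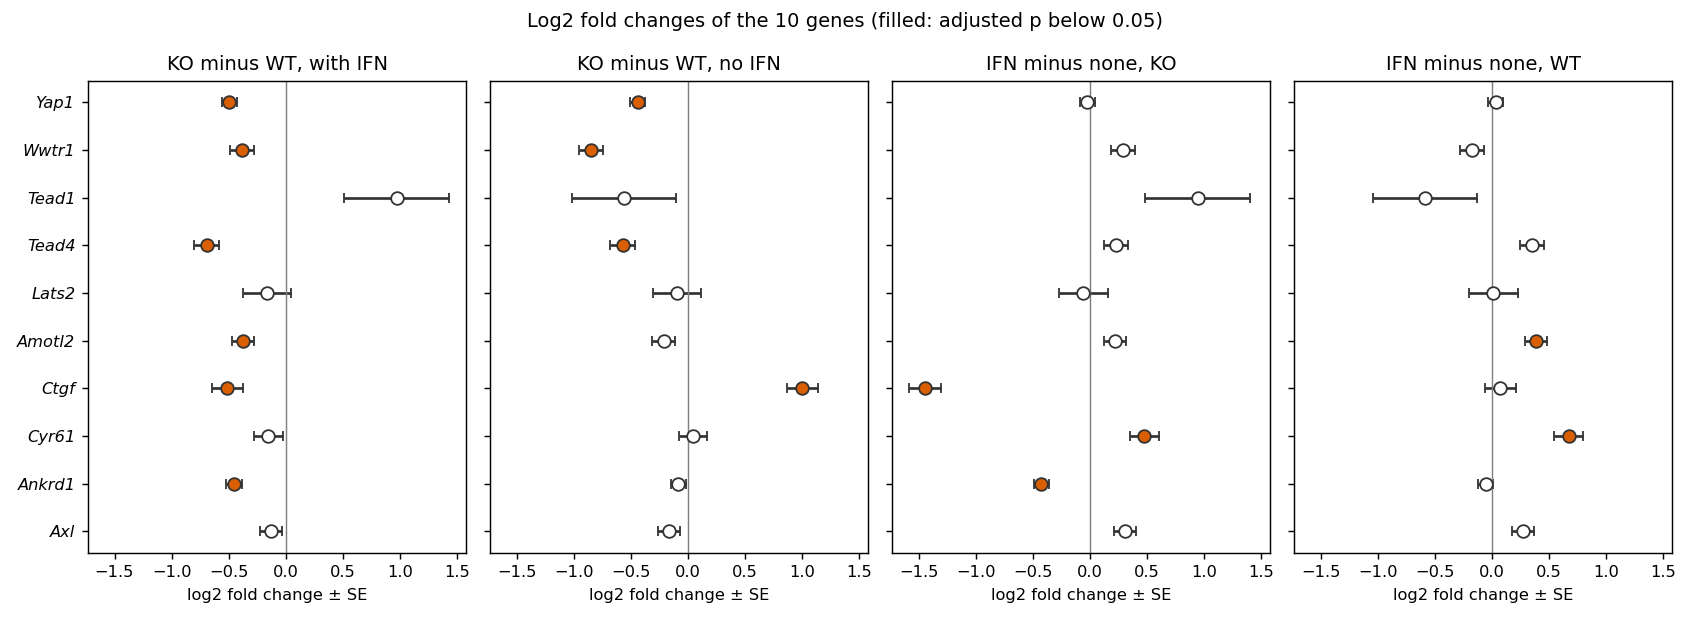
Log2 fold changes with standard errors of the 10 genes in the 4 comparisons between groups, with 3 libraries per group, filled where the adjusted p was below 0.05 (edgeR). Yap1, Wwtr1 and Tead4 lie left of 0 in both knockout comparisons, and Ctgf lies at 1.01 without IFN and at -0.51 with IFN.

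The coactivators were lower in knockout cells under both conditions. Yap1 (ENSMUSG00000053110, chr9:7931999-8004596, GRCm38) had 83.4, 86.0 and 83.6 CPM in treated knockout libraries and 125, 115 and 116.5 CPM in treated wild-type libraries. Without IFN it had 86.8, 87.4 and 82.8 CPM in knockout libraries and 119, 112 and 117 CPM in wild-type libraries. The 6 knockout libraries all lay below the 6 wild-type libraries, and IFN shifted neither genotype by more than the spread between libraries. Knockout gave a log2 fold change of -0.49 ± 0.07 (SE) with IFN (adjusted p = 0.000255) and -0.44 ± 0.07 without (adjusted p = 0.000659, edgeR, n = 3 each). For IFN it was -0.02 ± 0.07 in knockout cells and 0.03 ± 0.07 in wild-type cells (adjusted p = 0.872 and 0.811). In the authors' TPM table the picture without IFN was less even. Knockout replicate 1 was listed at 63.9 TPM and replicates 2 and 3 at 47.4 and 43.1 TPM, against 61.6, 57.7 and 64.7 TPM in wild-type libraries. On log2(TPM + 1) the change without IFN was -0.27 and did not pass (limma, adjusted p = 0.175), while with IFN it was -0.46 (adjusted p = 0.0328).

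Wwtr1 (ENSMUSG00000027803, chr3:57455649-57575910), which codes for TAZ, showed the larger fall of the pair without IFN. It had 82.3, 78.0 and 86.2 CPM in untreated knockout libraries and 151, 145 and 147.5 CPM in untreated wild-type libraries. Its log2 fold change was -0.85 ± 0.11 (adjusted p = 0.00012, edgeR, n = 3 each). With IFN it had 99.0, 96.1 and 106 CPM in knockout libraries and 114, 123 and 157 CPM in wild-type libraries. These groups did not overlap, but treated wild-type replicate 3 stood well above its fellows. The log2 fold change was -0.39 ± 0.11 (adjusted p = 0.0253, edgeR). The call was lost with no filter on low counts (adjusted p = 0.0663) and in the fit of only the 6 libraries compared (0.0502). It was also lost without knockout replicate 1 (0.0892), knockout replicate 2 (0.104) or wild-type replicate 3 (0.0717) of the treated cells. Without that last library the change was -0.24. The difference between the 2 knockout effects, 0.46 ± 0.15, did not pass (adjusted p = 0.26) unless the same library was left out (0.61, adjusted p = 0.0191). IFN gave 0.29 ± 0.11 in knockout cells and -0.17 ± 0.11 in wild-type cells, neither past the threshold (adjusted p = 0.0961 and 0.361), and without treated wild-type replicate 3 these were 0.29 and -0.32 (adjusted p = 0.0199 and 0.0364).

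**Figure D2:**
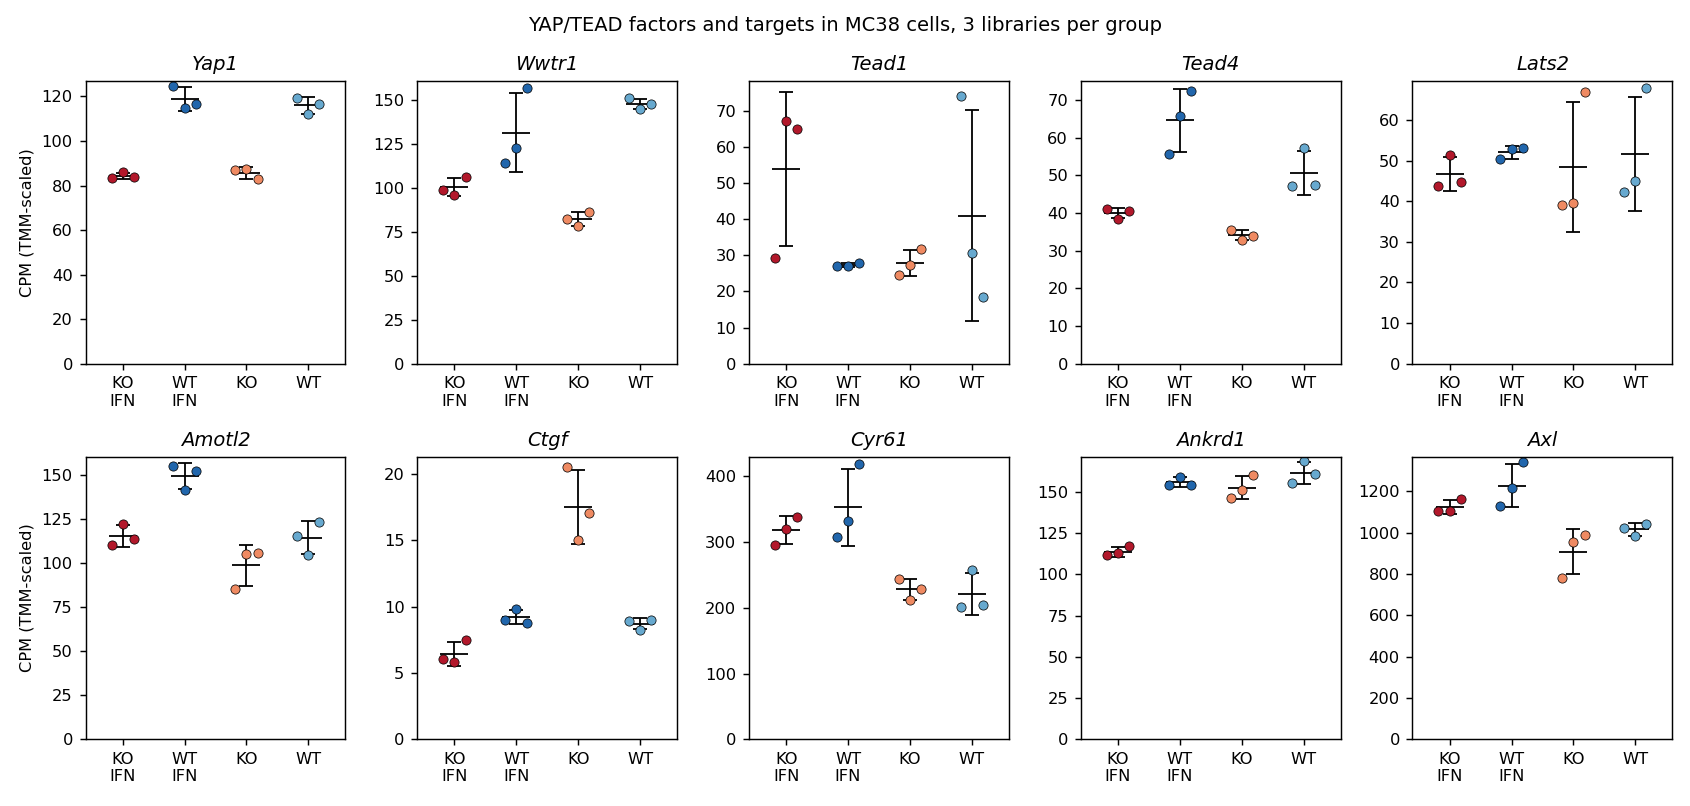
Level of the 10 genes in CPM (scaled by TMM) in each of the 12 libraries, with the mean and SD of each group of 3. The knockout libraries of Yap1, Wwtr1 and Tead4 lie below the wild-type libraries of the same treatment, untreated knockout libraries of Ctgf (15.02 to 20.6 CPM) lie above all others, and Tead1 scatters within groups.

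Of the DNA-binding factors, Tead4 fell in knockout cells under both conditions. Tead4 (ENSMUSG00000030353, chr6:128224288-128300823) had 41.2, 38.4 and 40.4 CPM in treated knockout libraries and 55.7, 65.9 and 72.4 CPM in treated wild-type libraries. In untreated cells it had 35.6, 32.8 and 34.0 CPM in knockout libraries and 47.1, 57.4 and 47.4 CPM in wild-type libraries. Groups overlapped in neither comparison. Its log2 fold change was -0.69 ± 0.11 with IFN (adjusted p = 0.000789) and -0.57 ± 0.11 without (adjusted p = 0.00327, edgeR, n = 3 each), and both calls stood whichever library was left out. With IFN Tead4 was higher by 0.23 ± 0.11 in knockout cells and by 0.35 ± 0.11 in wild-type cells, and neither passed (adjusted p = 0.202 and 0.0627). The change in wild-type cells passed without untreated wild-type replicate 2 (0.45, adjusted p = 0.0167) and without treated wild-type replicate 1 (0.45, adjusted p = 0.0274).

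Tead1 could not be placed, because the counts and the TPM of the same libraries disagreed. From the counts, Tead1 (ENSMUSG00000055320, chr7:112679318-112906807) had 29.2, 67.2 and 64.9 CPM in treated knockout libraries and 27.1, 26.9 and 28.0 CPM in treated wild-type libraries. Without treatment there were 24.5, 27.4 and 31.7 CPM in knockout libraries and 74.0, 30.5 and 18.4 CPM in wild-type libraries. Replicates 2 and 3 of the treated knockout and replicate 1 of the untreated wild-type cells were thus at more than 60 CPM, and the other 9 libraries at 31.7 CPM or less. In TPM the same libraries ran from 27.7 to 31.1 in treated knockout cells, from 25.7 to 29.6 in treated wild-type cells, from 29.8 to 36.3 in untreated knockout cells and from 19.9 to 28.4 in untreated wild-type cells. Of the 4 comparisons, only that of untreated knockout with untreated wild-type cells had groups that did not overlap in TPM. The ratio of CPM to TPM, which for a gene of fixed length varies little, spanned 3.12-fold between libraries for Tead1. That is more than in 99.6% of 12570 genes with a mean of 2 TPM or more, whose median was 1.09-fold. For Yap1 it spanned 1.43-fold and for the other 8 genes 1.05-fold to 1.22-fold. None of the 4 comparisons passed for Tead1 in edgeR: the log2 fold change of knockout was 0.97 ± 0.46 with IFN and -0.56 ± 0.46 without (adjusted p = 0.201 and 0.449). That of IFN was 0.94 ± 0.46 in knockout cells and -0.58 ± 0.46 in wild-type cells (adjusted p = 0.224 and 0.496). On log2(TPM + 1) the knockout values were 0.07 with IFN and 0.34 without (limma, adjusted p = 0.782 and 0.117). Without untreated wild-type replicate 1, the change with IFN passed on counts (0.97, adjusted p = 0.0441, edgeR).

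**Figure D3:**
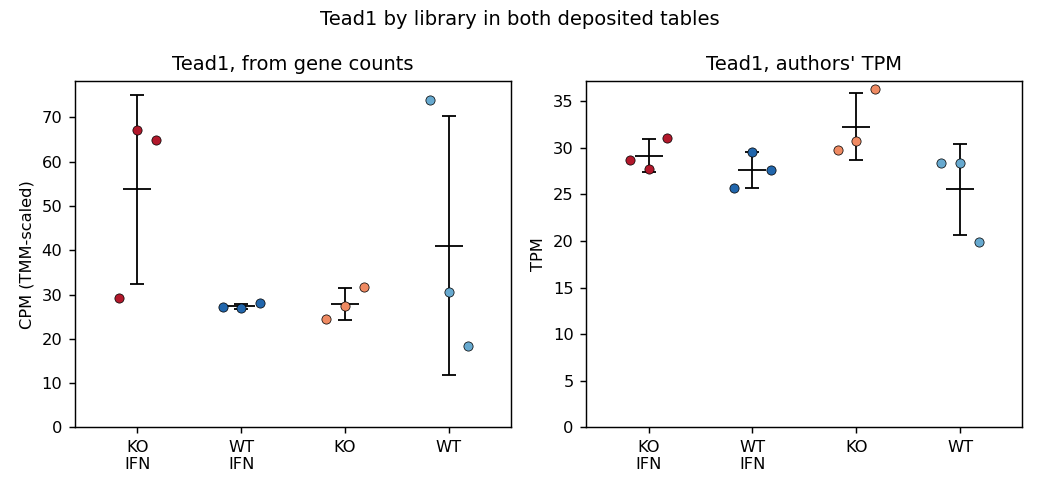
Tead1 in the 12 libraries, from the deposited counts (left, CPM scaled by TMM) and from the authors' TPM (right), with the mean and SD of each group of 3. On the left 3 libraries stand above 60 CPM, and on the right those same libraries lie at 27.7 to 31.1 TPM.

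The other 2 members of the TEAD family did not go the way of Tead4. Tead3 averaged 19.1 ± 1.6 CPM in treated knockout cells and 14.4 ± 2.18 CPM in treated wild-type cells (SD, n = 3 each). The untreated means were 25.4 ± 2.84 CPM in knockout cells and 15.5 ± 1.14 CPM in wild-type cells. Its rise without IFN, 0.71 ± 0.13, passed (adjusted p = 0.00208, edgeR) and held without any 1 library. With IFN it was 0.41 ± 0.13 (adjusted p = 0.0489), and passed in 3 of 12 fits that left out a library (adjusted p up to 0.174). Tead2 gave 0.43 ± 0.19 with IFN and 0.12 ± 0.19 without (adjusted p = 0.15 and 0.708). Vgll4, a coregulator that competes with YAP for TEAD proteins, gave -0.13 ± 0.14 with IFN and -0.07 ± 0.14 without (adjusted p = 0.594 and 0.768). Vgll1, Vgll2 and Vgll3 did not reach the minimum count.

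Of the 2 inhibitors, Amotl2 fell with the knockout when IFN was present, and Lats2 passed in no comparison. Amotl2 (ENSMUSG00000032531, chr9:102716672-102733418), an angiomotin that tethers YAP at cell junctions and is itself a YAP target, had 110.5, 123 and 114 CPM in treated knockout libraries and 155, 141.5 and 153 CPM in treated wild-type libraries. Without IFN it had 85.6, 105.5 and 106 CPM in knockout libraries and 115, 105 and 124 CPM in wild-type libraries. The treated groups did not overlap and the untreated ones did. The log2 fold change of knockout was -0.37 ± 0.10 with IFN (adjusted p = 0.0199) and -0.21 ± 0.10 without (adjusted p = 0.158, edgeR, n = 3 each), and the difference between them did not pass (-0.16 ± 0.14, adjusted p = 0.662). The call with IFN was lost without treated knockout replicate 1 (adjusted p = 0.0897) or 3 (0.0748), or treated wild-type replicate 1 (0.0674) or 3 (0.0553). It was also lost with no filter on low counts (adjusted p = 0.0571, edgeR). In wild-type cells IFN raised Amotl2 by 0.39 ± 0.10 (adjusted p = 0.0271). That call was lost without untreated wild-type replicate 1 (0.0682) or 2 (0.0571), or treated wild-type replicate 1 (0.0803), 2 (0.052) or 3 (0.0761). It was also lost with no filter (0.0547) and in the fit of only the 6 libraries compared (0.0734). In knockout cells the change was 0.22 ± 0.10 (adjusted p = 0.161).

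Lats2 (ENSMUSG00000021959, chr14:57689662-57758388), the kinase that phosphorylates YAP and TAZ, had 43.7, 51.5 and 44.7 CPM in treated knockout libraries and 50.3, 52.9 and 53.2 CPM in treated wild-type libraries. Without treatment there were 39.0, 39.5 and 66.8 CPM in knockout libraries and 42.2, 44.9 and 67.8 CPM in wild-type libraries. Replicate 3 of each untreated group stood above the other 2, so the groups overlapped. Knockout gave a log2 fold change of -0.16 ± 0.21 with IFN and -0.09 ± 0.21 without (adjusted p = 0.684 and 0.807, edgeR). That of IFN was -0.06 ± 0.21 in knockout cells and 0.01 ± 0.21 in wild-type cells (adjusted p = 0.902 and 0.978). Its exons share 42.4% of their bases with Gm49361 on the same strand, and reads there cannot be assigned to either gene with certainty.

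The angiomotins split. Amotl1 went the way of Amotl2, with 110.0 ± 4.26 CPM in treated knockout cells and 168 ± 6.7 CPM in treated wild-type cells (SD, n = 3 each). The untreated means were 123 ± 6.11 CPM in knockout cells and 180.0 ± 20.3 CPM in wild-type cells. Its log2 fold change was -0.61 ± 0.09 with IFN and -0.55 ± 0.09 without (adjusted p = 0.000329 and 0.000814, edgeR). Amot rose, with 43.5 ± 2.13 CPM in treated knockout cells and 31.7 ± 1.23 CPM in treated wild-type cells. The untreated means were 56.6 ± 3.61 CPM in knockout cells and 35.2 ± 3.16 CPM in wild-type cells. Its log2 fold change was 0.46 ± 0.09 with IFN and 0.69 ± 0.09 without (adjusted p = 0.00358 and 0.00017). These 4 calls stood whichever library was left out. IFN lowered Amot in knockout cells (-0.38 ± 0.09, adjusted p = 0.0135), a call lost without replicate 3 of the untreated knockout cells (0.0595) or replicate 1 (0.0641) or 2 (0.0669) of the treated ones.

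**Figure D4:**
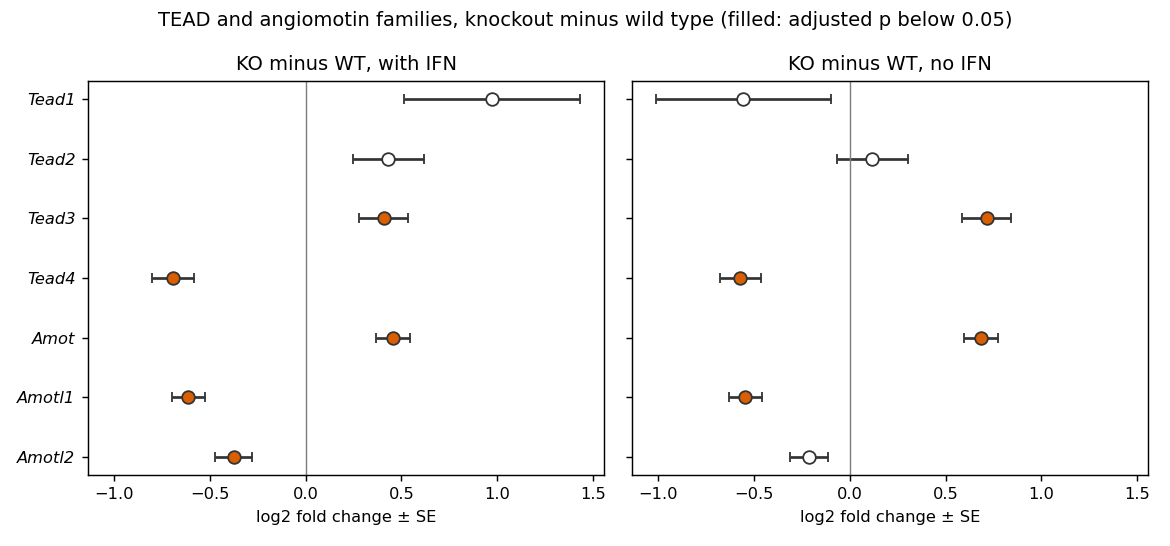
Log2 fold change of knockout with standard error for the TEAD factors and the angiomotins, with IFN (left) and without (right), filled where the adjusted p was below 0.05 (edgeR, 3 libraries per group). In both panels Tead3 and Amot lie right of 0, and Tead4 and Amotl1 lie left of it.

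Of 19 other genes of the kinase branch of the Hippo pathway, 1 rose (Taok2, 0.28) and 2 fell (Map4k1, -0.44, and Tnik, -2.72) in knockout cells with IFN, and 3 rose (Map4k2, 0.50, Wwc1, 0.24, and Map4k4, 0.35) and 1 fell (Tnik, -4.26) without it. These counts are near the shares of all genes called, 15.7% with IFN and 17% without. Their median log2 fold change was 0.11 with IFN and -0.17 without. Tnik rests on few counts: 4, 0 and 4 in treated knockout libraries against 17, 16 and 11 in treated wild-type libraries, and 1, 2 and 2 in untreated knockout libraries against 24, 41 and 18 in untreated wild-type libraries. Both Tnik calls held without any 1 library. Those of Taok2, Map4k1, Map4k2, Wwc1 and Map4k4 held in 7, 6, 10, 10 and 5 of 12 such fits. IFN raised Map4k1 in wild-type cells (0.44, adjusted p = 0.0385, edgeR), a call that held in 3 of 12 fits. Taok2 and Tnik were named after their values were seen.

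Among the targets, Ctgf stood apart. Ctgf (ENSMUSG00000019997, chr10:24595442-24598683) codes for a secreted matrix protein and is a widely used readout of YAP activity. It had 6.02, 5.84 and 7.48 CPM in treated knockout libraries and 9.02, 9.79 and 8.78 CPM in treated wild-type libraries. In untreated cells it had 20.6, 15.02 and 17.0 CPM in knockout libraries and 8.93, 8.28 and 8.97 CPM in wild-type libraries. Untreated knockout libraries were the highest of all 12 and treated knockout libraries the lowest, while the 2 wild-type groups overlapped. The log2 fold change of knockout was -0.51 ± 0.14 with IFN (adjusted p = 0.0234) and 1.01 ± 0.14 without (adjusted p = 0.000239, edgeR, n = 3 each). The difference between these, the interaction, was -1.52 ± 0.19 (adjusted p = 0.00107) and ranged from -1.64 to -1.39 over the 12 fits that left out a library. With IFN the log2 fold change of Ctgf was -1.44 ± 0.14 in knockout cells (adjusted p = 1.74e-05), and in wild-type cells the change was 0.08 ± 0.14 (adjusted p = 0.794). The fall with IFN present was the weak point, lost without treated knockout replicate 1 (adjusted p = 0.0975) or 2 (0.104) or treated wild-type replicate 1 (0.0532) or 2 (0.0895). It was also lost with no filter on low counts (adjusted p = 0.0535, edgeR). Gm15270 on the opposite strand overlaps 23.2% of the exonic bases of Ctgf, and the strand setting of the counts was not given in the sources used here.

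Ankrd1 (ENSMUSG00000024803, chr19:36111961-36120099), a cofactor with ankyrin repeats and another standard YAP target, fell in knockout cells with IFN and did not pass without it. It had 111.5, 113 and 117 CPM in treated knockout libraries and 154, 159 and 154 CPM in treated wild-type libraries. Without IFN it had 146, 151 and 160.0 CPM in knockout libraries and 155, 168 and 161 CPM in wild-type libraries. The treated knockout libraries were the lowest of the 12, and the other 3 groups overlapped. Knockout gave a log2 fold change of -0.45 ± 0.07 with IFN (adjusted p = 0.000466) and -0.08 ± 0.07 without (adjusted p = 0.433, edgeR, n = 3 each). The interaction, -0.37 ± 0.09, did not pass (adjusted p = 0.112). It passed without untreated wild-type replicate 2 (-0.40, adjusted p = 0.0477), and in DESeq2's Wald test (-0.38, adjusted p = 0.00461). IFN lowered Ankrd1 in knockout cells (-0.42 ± 0.07, adjusted p = 0.00103), and in wild-type cells the change was -0.05 ± 0.07 (adjusted p = 0.699).

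Cyr61 (ENSMUSG00000028195, chr3:145646976-145649981), a secreted matrix protein of the same family as Ctgf, rose with IFN in both genotypes and did not pass between knockout and wild-type cells. It had 295.5, 320.0 and 338 CPM in treated knockout libraries and 308, 332 and 418 CPM in treated wild-type libraries. In untreated cells it had 244, 211 and 229 CPM in knockout libraries and 201, 257 and 205 CPM in wild-type libraries. Every treated library lay above every untreated one. IFN raised it by 0.48 ± 0.13 in knockout cells (adjusted p = 0.0253) and by 0.67 ± 0.13 in wild-type cells (adjusted p = 0.00523, edgeR, n = 3 each). The call in wild-type cells was lost in the fit of only the 6 libraries compared (0.67, adjusted p = 0.0532). That in knockout cells was lost without replicate 2 (adjusted p = 0.0965) or 3 (0.0647) of the untreated, or replicate 2 (0.0744) or 3 (0.1) of the treated knockout cells. The log2 fold change of knockout was -0.15 ± 0.13 with IFN and 0.04 ± 0.13 without (adjusted p = 0.488 and 0.842).

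Axl (ENSMUSG00000002602, chr7:25757273-25788705), a receptor tyrosine kinase and the most abundant of the 10 transcripts, passed in none of the 5 tests. It had 1106, 1105 and 1164 CPM in treated knockout libraries and 1130, 1215 and 1340 CPM in treated wild-type libraries. Without treatment there were 783, 954.5 and 988 CPM in knockout libraries and 1021, 984 and 1044 CPM in wild-type libraries. Treated libraries did not overlap with untreated ones of the same genotype. The log2 fold change of IFN was 0.31 ± 0.10 in knockout cells (adjusted p = 0.0557) and 0.27 ± 0.10 in wild-type cells (adjusted p = 0.102, edgeR). The change in knockout cells passed in DESeq2's Wald test (adjusted p = 0.0269), and in edgeR without untreated wild-type replicate 2 (0.0378), treated wild-type replicate 3 (0.0471) or untreated knockout replicate 3 (0.0468). The change in wild-type cells passed without untreated knockout replicate 1 (0.0366). That of knockout was -0.13 ± 0.10 with IFN and -0.16 ± 0.10 without (adjusted p = 0.441 and 0.278).

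Levels between genes were compared in TPM, which is per length. In untreated wild-type cells Axl averaged 531 ± 11.6 TPM (SD, n = 3), followed by Cyr61 (224 ± 29.7), Ankrd1 (187 ± 6.59), Amotl2 (82.8 ± 7.56), Wwtr1 (64.4 ± 1.49), Yap1 (61.3 ± 3.51), Tead4 (38.0 ± 3.12), Tead1 (25.6 ± 4.87), Lats2 (25.4 ± 6.88) and Ctgf (7.49 ± 0.498). The libraries of Wwtr1 and Yap1, and of Tead1 and Lats2, overlapped, and those of the other neighbours in this order did not. The place of Tead1 in this order rests on TPM alone, which disagreed with its counts as described above. Wwtr1 stood at 36.4 ± 1.88 TPM and Yap1 at 51.5 ± 11 TPM in untreated knockout cells. Ctgf, the least abundant, averaged 5.5 ± 0.706 TPM in treated knockout cells and 7.77 ± 0.625 TPM in treated wild-type cells, and 15.4 ± 2.21 TPM in untreated knockout cells.

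The 6 inhibitors and targets are part of a YAP signature of 22 genes, of which 15 others were tested (Igfbp3 did not reach the minimum count). In knockout cells with IFN 5 of the 15 fell and the other 10 did not pass, while 10.6% of all genes fell, and their median log2 fold change was -0.19. Without IFN 1 rose (Crim1) and 2 fell (Gadd45a and Fjx1), near the 17% of all genes called there, with a median of 0.1. Gadd45a, a stress gene that acts in growth arrest, had 12.1 ± 0.888 CPM in treated knockout cells and 36.2 ± 3.13 CPM in treated wild-type cells (SD, n = 3 each). The untreated means were 24.6 ± 1.09 CPM in knockout cells and 34.6 ± 1.09 CPM in wild-type cells. Its log2 fold change of knockout was -1.58 ± 0.10 with IFN and -0.49 ± 0.09 without (adjusted p = 2.15e-07 and 0.00292, edgeR). It was the other gene of the signature with an interaction past the threshold, -1.09 ± 0.13 (adjusted p = 0.000625). The remaining falls with IFN were -1.32 ± 0.30 for Tgfb2, a TGF-β ligand at 1.25 CPM in treated knockout and 3.15 CPM in treated wild-type cells, -0.89 ± 0.20 for F3 (tissue factor), -0.82 ± 0.17 for Fjx1 and -0.24 ± 0.07 for Ptpn14, a phosphatase that restrains YAP. Those of Tgfb2, F3 and Fjx1 held without any 1 library and that of Ptpn14 in 3 of 12 such fits. Without IFN the fall of Fjx1 (-0.60 ± 0.17) held in 7 and the rise of Crim1 (0.29 ± 0.09) in 2 of 12.

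IFN itself lowered 4 of these 15 in knockout cells, Gadd45a (-1.03 ± 0.09), Tgfb2 (-0.99 ± 0.30), Rbms3 (-0.97) and Crim1 (-0.30 ± 0.09), with a median of -0.05, while 7.28% of all genes fell. The Gadd45a call held without any 1 library, and those of Rbms3, Tgfb2 and Crim1 held in 10, 2 and 2 of 12 fits. In wild-type cells IFN raised Nuak2 alone among them (0.60, adjusted p = 0.0347, edgeR, held in 5 of 12 fits), with a median of 0.05, and 9.38% of all genes passed in that comparison. F3, Ptpn14, Rbms3 and Nuak2 were named after their values were seen.

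**Figure D5:**
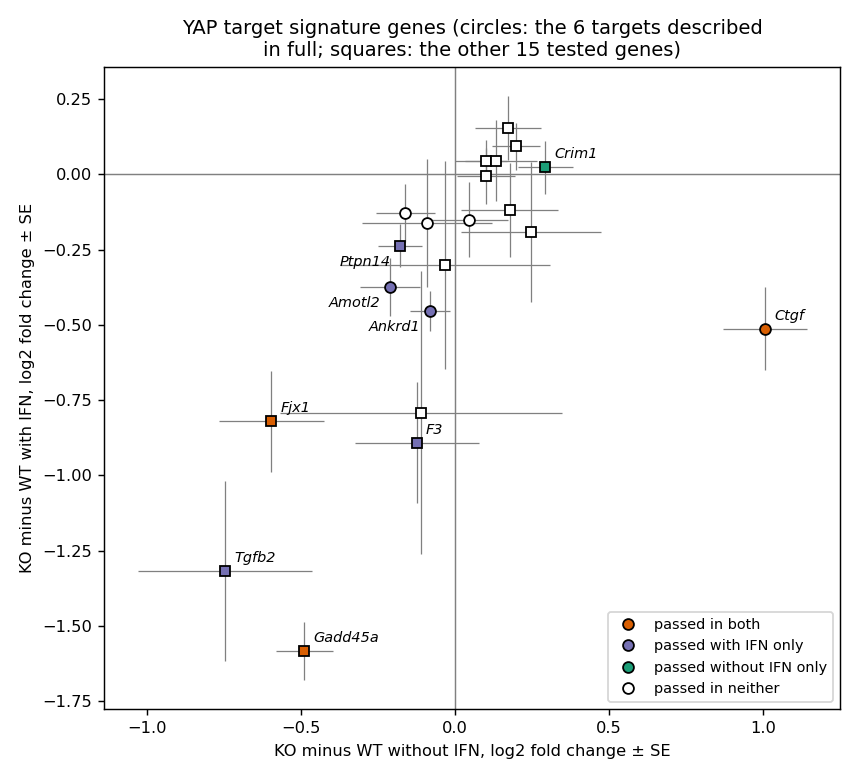
Log2 fold change of knockout with IFN (vertical axis) against that without IFN (horizontal axis), with standard errors, for 21 tested genes of the YAP signature. Circles are the 6 inhibitors and targets described above and squares the other 15. Ctgf lies alone at 1.01 without and -0.51 with IFN, and Gadd45a lies lowest at -1.58 with IFN. The axes share no library.

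IFN lowered 3 of the other 4 genes of the family of Ctgf and Cyr61 in each genotype. Over all genes 7.28% fell with IFN in knockout cells and 4.72% in wild-type cells. Knockout lowered 1 of the 4 with IFN and 2 without, and 10.6% of all genes fell in each of these comparisons. Wisp1, a secreted protein of this family known as a target of Wnt signalling, averaged 2.4 ± 0.424 CPM in treated knockout cells and 5.78 ± 0.918 CPM in treated wild-type cells (SD, n = 3 each). The untreated means were 6.99 ± 1.12 CPM in knockout cells and 12.9 ± 2.21 CPM in wild-type cells. IFN gave -1.54 ± 0.19 in knockout cells and -1.16 ± 0.18 in wild-type cells, and knockout gave -1.27 ± 0.19 with and -0.88 ± 0.18 without IFN (adjusted p = 0.000156, 0.00174, 0.000597 and 0.00507, edgeR). These calls held without any 1 library. Nov (-1.79 ± 0.27 in knockout and -1.24 ± 0.28 in wild-type cells) and Wisp2 (-1.60 ± 0.45 and -2.06 ± 0.42) fell with IFN too, at levels of at most 1.8 CPM in any library. The call of Nov in wild-type cells was lost without untreated replicate 1 (adjusted p = 0.0508) or treated replicate 2 (0.0593) of these cells, and that of Wisp2 in knockout cells held in 5 of 12 fits. Wisp2 also fell with the knockout without IFN (-1.29 ± 0.38, adjusted p = 0.0362, held in 6 of 12 fits). Wisp3, at 0.214 to 0.434 CPM, passed nowhere.

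Of 3 other tested TAM receptors and ligands, relatives and partners of Axl, 2 fell in knockout cells with IFN and 1 without. Over all genes 10.6% fell in each of these comparisons. IFN lowered 1 of the 3 in each genotype, while 7.28% of all genes fell in knockout and 4.72% in wild-type cells. Pros1, a ligand of these receptors, had 22.7 ± 0.885 CPM in treated knockout cells and 38.4 ± 2.88 CPM in treated wild-type cells (SD, n = 3 each). The untreated means were 20.4 ± 1.59 CPM in knockout cells and 34.3 ± 1.46 CPM in wild-type cells. Its log2 fold changes were -0.76 ± 0.09 and -0.75 ± 0.09 (adjusted p = 9.41e-05 and 9.84e-05, edgeR). Mertk fell with the knockout where IFN was present (-1.05 ± 0.20, adjusted p = 0.00272) and gave -0.54 ± 0.18 without (adjusted p = 0.0615). IFN lowered it in both genotypes (-1.47 ± 0.19 in knockout and -0.96 ± 0.19 in wild-type cells, adjusted p = 0.000246 and 0.00641). These calls held without any 1 library. Tyro3 gave 0.24 ± 0.13 with and 0.32 ± 0.13 without IFN and did not pass (adjusted p = 0.282 and 0.131). Gas6 did not reach the minimum count.

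A pair of neighbouring programmes was counted beside the YAP targets, since both drive some of the same genes. Of 19 tested genes of the actin and SRF programme, 4 rose (Tpm2, Tagln2, Tpm4 and Actb) and 3 fell (Acta2, Mkl1 and Tpm1) in knockout cells with IFN, and 2 rose (Tpm2 and Flna) and 1 fell (Tpm1) without. Over all genes 15.7% passed with IFN and 17% without, and the count without IFN is near that share. Tpm1, a tropomyosin, gave -0.46 ± 0.11 with and -0.62 ± 0.11 without IFN, and Tpm2 0.67 ± 0.09 and 0.51 ± 0.09. IFN raised Acta2 and Tagln2 and lowered Fhl2 in knockout cells, and raised Acta2, Srf and Actg1 and lowered Tpm2 in wild-type cells. For IFN 12.8% of all genes passed in knockout cells and 9.38% in wild-type cells. Of 11 genes of TGF-β signalling, 1 rose (Tgfb3) and 2 fell (Skil and Smad3) in knockout cells with IFN, and 1 rose (Ltbp2) and 3 fell (Pmepa1, Skil and Smad3) without. Smad3, which carries the signal of TGF-β receptors to the nucleus, gave -0.29 ± 0.08 with and -0.47 ± 0.08 without IFN. IFN raised Pmepa1, Ltbp2 and Tgfb1 and lowered Tgfb3, Tgfbi and Tgfbr2 in knockout cells, and raised Pmepa1 and Ltbp2 and lowered Tgfb3 and Tgfbi in wild-type cells. Of these 34 calls over both lists, 11 were lost when some 1 library was left out, among them that of Smad3 with IFN (adjusted p up to 0.12). The genes of both lists other than Tpm1, Tpm2, Flna, Actg1, Smad3, Pmepa1 and Skil were named after their values were seen.

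Ctgf alone among the 10 genes changed by at least 1 on the log2 scale in a comparison it passed, and the genes with the most similar pattern were sought for it. Likeness was the root mean square difference between log2 CPM values centred on their mean over the 12 libraries. The search covered 10821 other genes with a mean of 2 CPM or more, without clone-based or predicted symbols. The nearest were Sort1, a sorting receptor (0.181), Prss16, a serine protease (0.227), and Pcx, pyruvate carboxylase (0.227), where the median gene lay at 0.577. Pcx had 26.1, 25.3 and 23.9 CPM in treated knockout libraries and 25.0 to 27.1 CPM in treated wild-type libraries. Untreated, it had 61.6, 51.1 and 48.5 CPM in knockout libraries and 31.1, 22.1 and 32.4 CPM in wild-type libraries. Its high group was the untreated knockout cells, as for Ctgf, and its other 9 libraries overlapped. Sort1 had 5.25 to 6.48 CPM in untreated knockout libraries and 2.45 to 4.15 CPM in the other 9. With IFN present, knockout gave -0.34, -0.07 and -0.05 for Sort1, Prss16 and Pcx. None of these passed (adjusted p = 0.178, 0.846 and 0.854, edgeR), unlike the fall of Ctgf. The interaction passed for Pcx (-0.96, adjusted p = 0.0318) and not for Sort1 (0.0798) or Prss16 (0.167, edgeR). Sort1, Prss16 and Pcx were chosen by their pattern, so it is no test.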

How the data were processed

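RNA of 12 MC38 samples was sequenced from both ends in reads of 150 bases after poly-A selection, per the labels' protocols. The submitters' processing notes name CASAVA, FastQC 0.11.2, Trimmomatic 0.36, HISAT2 2.1.0 and the build GRCm38. For the counting tool, its strand setting and the annotation, nothing is given in the sources used here. Raw counts and TPM per gene were deposited for each sample, and 51633 of the 51826 gene IDs are in GENCODE M21.

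Groups followed the sample titles. Nothing says that the 3 samples of a group came from separate cultures, so p-values measure the spread between samples, which may be technical. Counts were tested with edgeR 4.0.16 (R 4.3.3; TMM scaling, filterByExpr with a minimum count of 10 and a minimum total of 15, robust quasi-likelihood fit of 4 group means to all 12 libraries, 8 residual degrees of freedom), with Benjamini-Hochberg adjustment per comparison and a threshold of 0.05. The script was tested on simulated data. The standard error is the log2 fold change divided by the root of F. TPM were compared as log2(TPM + 1) with limma 3.58.1. That scale understates changes of low genes.

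Alternatives were DESeq2 1.42.0, its size factors in edgeR, no filter, the replicate number as a block, leaving out each library, leaving out a pair of libraries, only the 6 libraries compared, limma on TPM, and the groups of the characteristics. The 10 genes and all lists were chosen with earlier results of these data known. All 10 genes are named. The rule for each related list was to name up to 4 genes. These were those with the smallest p for the knockout without IFN at a mean of 2 CPM or more. Families of the 10 genes are named in full. Genes said above to be named after their values were seen go beyond this rule, and Tnik among them is below 2 CPM. Some genes of the lists are not reported here, and the counts for TGF-β signalling leave them out. Counting intervals and floors cover counting error only.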

Additional observations from a re-analysis of the deposited data

Results flagged for a closer look

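The knockout effect on Ctgf differed between cells with and without IFN: the interaction was -1.52 on the log2 scale (adjusted p = 0.00107, edgeR), with knockout effects of -0.51 with IFN and 1.01 without it, n = 3 libraries per group.

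Gadd45a, another gene of the YAP signature, had an interaction of -1.09 (adjusted p = 0.000625, edgeR), with knockout effects of -1.58 with IFN and -0.49 without it, both negative.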

How the results depend on the processing

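Of the 10 genes, 4 passed for the knockout without IFN in each fit that left out a library (range 4 to 4). The same counts ran from 3 to 7 for the knockout with IFN, 2 to 5 for IFN in knockout cells, 1 to 3 for IFN in wild-type cells and 1 to 2 for the interaction. With no filter on low counts, 3 passed for the knockout with IFN and 1 for IFN in wild-type cells. Untreated wild-type replicate 2 and untreated knockout replicate 1 each stood farthest from their group. With both left out together, 4 passed for IFN in wild-type cells and 2 for the interaction. Treated wild-type replicate 3 also stood farthest from its group, and was left out only by itself. With only the 6 libraries compared, 0 passed for IFN in wild-type cells in edgeR (4 at an unadjusted p under 0.05), where edgeR on all libraries gave 2 and DESeq2 gave 3. DESeq2 gave 2 for the interaction. The groups of the characteristics exchange treated wild-type and untreated knockout cells, so they give the comparisons by titles under exchanged names. Named that way, 2 passed for the knockout without IFN, 3 with IFN, 4 for IFN in wild-type cells and 6 for IFN in knockout cells. This is no separate test of the results. 

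Direction turned, in fits that left out a library, for values near 0 or for Tead1 and Lats2. For the knockout without IFN the ranges were -0.905 to 0.19 for Tead1, -0.016 to 0.172 for Cyr61 and -0.396 to 0.155 for Lats2. For IFN in wild-type cells they were -0.935 to 0.16 for Tead1, -0.112 to 0.259 for Lats2 and -0.002 to 0.058 for Yap1. For IFN in knockout cells Lats2 ran from -0.189 to 0.25. For the interaction Lats2 ran from -0.315 to 0.236 and Axl from -0.062 to 0.102. Lats2 with IFN in wild-type cells was -0.001 with no filter and -0.077 with both libraries out. The interaction of Axl was -0.04 with both libraries out and -0.001 in limma on TPM. Tead1 in limma on TPM was 0.337 for the knockout without IFN, 0.124 and -0.139 for IFN in wild-type and knockout cells, and -0.263 for the interaction. The cause was not tested.

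Over all genes, with both libraries out 4457 passed for the knockout with IFN, 2717 for IFN in wild-type cells and 265 for the interaction, against 2622, 1564 and 170. DESeq2 gave 349 for the interaction, and the fits of 6 libraries gave 1494 for the knockout without IFN and 648 for IFN in wild-type cells, against 2835 and 1564, but 3561 for the knockout with IFN and 2680 for IFN in knockout cells, against 2622 and 2127.

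With the replicate block, 4, 6, 4, 2 and 1 of the 10 genes passed for the knockout without IFN, with IFN, IFN in knockout cells, IFN in wild-type cells and the interaction. The block added Axl for IFN in knockout cells (0.314, adjusted p = 0.0433, edgeR). The labels name no batch, and in them same-numbered samples share only the number. Over 18 same-numbered pairs the deviations from the group mean correlated from -0.323 to 0.168, 3 of them above 0.1. Over 36 pairs with different numbers they correlated from -0.259 to 0.301, 8 of them above 0.1.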
